A study of Mus musculus with 9 samples.

Results

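Sorted mouse neutrophils that had shared a dish with PyMT-N cells were compared with sorted neutrophils that had shared one with PyMT-M cells. The members were chosen by their labels alone and make up 6 of the 9 RNA sequencing libraries of the series, with 3 libraries for each co-culture. The neutrophils, taken from wild type C57/B6 bone marrow, spent 12 h with either cell type in DMEM with 0.5% fetal bovine serum, and both sides went through fluorescence-activated sorting. The other 3 libraries, from neutrophils kept for 12 h in 0.5% serum without tumour cells, entered the same model and served to sort genes by their level without a partner cell. PyMT is the polyoma middle T antigen, an oncogene that drives mammary carcinoma in a widely used mouse model. What N and M abbreviate, and how either cell type was made, the labels do not say, although the title of the series speaks of neutrophils adhering to epithelial-like cancer cells. Libraries are labelled as biological replicates, but no animal is named, so the p-values measure the spread between these libraries. The labels do not say that the neutrophils kept alone were sorted.

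Neutrophils are short-lived granulocytes that leave the marrow with most of their granule proteins already made. In culture and in tumours they answer cytokines such as G-CSF, GM-CSF and type I interferon, and microbial or damage signals, through JAK-STAT and NF-kB signalling. The genes then transcribed encode chemokines, IL-1 family cytokines, prostaglandin enzymes and interferon-stimulated proteins. Co-culture adds a second source of RNA, since tumour cells or their debris that stay attached to a sorted neutrophil can be sequenced with it. Genes were therefore described in classes by their mean in the libraries of neutrophils kept alone: at least 10 CPM (counts scaled to a common library total), 1 to 10 CPM, and near absent at under 1 CPM. Levels of single genes below are normalised CPM, which is CPM after trimmed-mean scaling of the libraries, while classes and sums over marker lists are in plain CPM without that scaling.

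The libraries held 3507969 to 4524563 counts after PyMT-N co-culture, 3269332 to 4307585 after PyMT-M co-culture and 1641049 to 3180382 alone. Log expression correlated at 0.965 to 0.968 among the PyMT-N libraries, at 0.96 to 0.97 among the PyMT-M libraries, and at only 0.768 to 0.794 between the 2 groups. Genes of at least 10 CPM alone held 89.5% to 90.8% of counts in PyMT-N libraries and 90.1% to 91.2% in PyMT-M libraries, against 97.4% to 98.2% alone. Near-absent genes held 2.96% to 3.63% of counts with PyMT-N and 2.2% to 2.52% with PyMT-M, but 0.0882% to 0.29% alone. The mitochondrial ribosomal RNA mt-Rnr2 took 2.65% to 4.0% of counts with PyMT-N and 6.12% to 11.1% with PyMT-M, and ribosomal protein genes took 1.71% to 2.16% and 3.1% to 3.49%. Of 12012 genes tested, 2297 (19.1%) were higher and 1865 (15.5%) lower with PyMT-N than with PyMT-M at an edgeR adjusted p under 0.05, and 6352 genes (52.9%) had groups that did not overlap.

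Epithelial transcripts were higher in the sorted PyMT-N libraries and most collagen genes in the PyMT-M libraries, and these values stand beside every result that follows. The 22 epithelial markers summed to 4300 to 4910 CPM with PyMT-N, 767 to 1150 with PyMT-M and 1016 to 1366 alone, and only Krt5 was at 0 in all 6 co-culture libraries. The granule gene Lcn2, which neutrophils express, made up 1206 to 1811 of these CPM with PyMT-N, 559 to 983 with PyMT-M and 923 to 1255 alone. Without it, a choice made after seeing the data, the other 21 markers summed to 2554 to 3602 CPM with PyMT-N, 140.4 to 209 with PyMT-M and 57.3 to 110.4 alone. All 20 tested epithelial markers were higher with PyMT-N, 14 of them near absent alone. The 24 mesenchymal markers summed to 2219 to 2601 CPM with PyMT-N, 4469 to 5513 with PyMT-M and 1418 to 1580 alone. Most of the PyMT-M sum was Vim, which neutrophils express, at 480.0 to 533 CPM with PyMT-N, 2647 to 3552 with PyMT-M and 1071 to 1192 alone. Without Vim, again chosen after seeing the data, the co-cultures overlapped, at 1731 to 2121 CPM with PyMT-N and 1772 to 1961 with PyMT-M, both above the 347 to 388 alone. Fn1 was still in that sum, at 789.8, 822 and 1042 normalised CPM with PyMT-N and 0.215, 2.1 and 1.33 with PyMT-M. The overlap therefore does not describe the list without Fn1, whose sum was not taken. Of the 20 tested mesenchymal markers, 11 were lower and 5 higher with PyMT-N, and Postn was at 0 in all 6. For both sums over the whole lists, an exact permutation test of 3 against 3 libraries gave its smallest two-sided p of 0.1 (0.18 after adjustment over 9 marker lists). In these bulk libraries, the number of tumour cells and the amount of RNA per tumour cell cannot be told apart. Why epithelial and most collagen genes differed in opposite directions was not tested.

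Markers of other blood cells were summed in the same way. The 15 T and NK cell markers summed to 1.13 to 2.65 CPM with PyMT-N and 0.25 to 2.14 with PyMT-M, and 10 of the 15 had no count in either co-culture. The 12 B cell markers summed to 47.1 to 60.0 CPM with PyMT-N and 102 to 166 with PyMT-M, with 649 to 1377 alone. The 17 monocyte and macrophage markers lay at 1001 to 1257 and 960 to 1223 CPM in the 2 co-cultures, with overlapping ranges, and 4 of 15 tested members were higher and 5 lower with PyMT-N. Dendritic cell markers summed to 146 to 192 and 120 to 148 CPM, eosinophil, basophil and mast cell markers to 31.6 to 37.4 and 19.6 to 23, erythroid markers to 1.77 to 3.71 and 0.499 to 4.28, and endothelial and platelet markers to 30.8 to 63.9 and 5.49 to 15.3. Their part in the results was not tested.

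Among the 6851 tested genes that neutrophils alone expressed at 10 CPM or more, 1219 (17.8%) were higher and 902 (13.2%) lower with PyMT-N, and 690 and 480 of these differed at least 2-fold. The median log2 fold change, PyMT-N minus PyMT-M, was 0.02 in this class. The balance of directions depended on scaling: with library totals 864 were higher and 1436 lower, so that the share of higher calls went from 57.5% to 37.6%, and with scaling to pan-leukocyte genes 706 were higher and 1183 lower (37.4%). Those scalings moved the median of all genes by -0.21 and -0.23 log2 units, so a difference under that size has no fixed direction here. The count of lower genes was 588 without PyMT-N replicate 3 and 1370 without alone replicate 3. Among 3810 genes of 1 to 10 CPM alone, 555 (14.6%) were higher and 593 (15.6%) lower. Levels against the neutrophils kept alone depended on the scaling even more: of the 1219 higher genes, the alone mean lay at or below both co-cultures in 265, between them in 542 and at or above both in 412, but in 1040, 160 and 19 with pan-leukocyte scaling. Of the 902 lower genes, 263, 188 and 451 stood in those positions, and 493, 302 and 107 of the same genes with pan-leukocyte scaling. The alone values below are therefore given for orientation and not tested. Statements below on where the alone libraries lie hold in trimmed-mean scaling and were not repeated with pan-leukocyte scaling. Near the 10 CPM boundary, 15 of the 111 genes within 0.5 CPM below it were higher and 16 lower, and 11 and 14 of the 121 genes within 0.5 CPM above it.

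**Figure D1:**
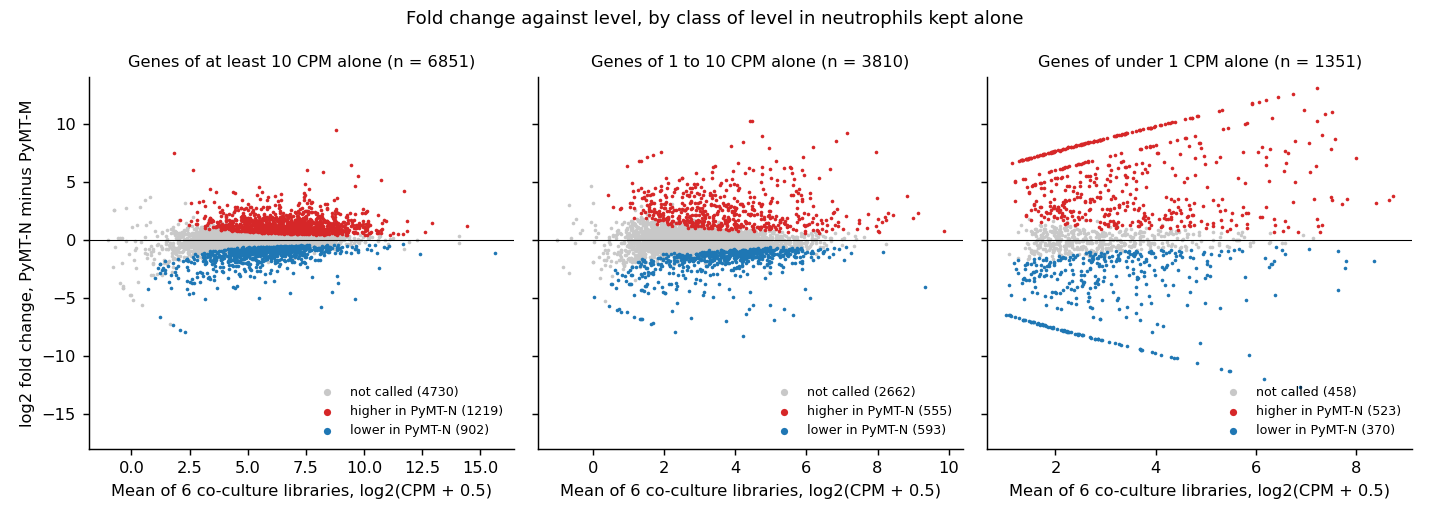
Each point is a tested gene, with its mean level over the 6 co-culture libraries on the x axis (log2 of normalised CPM + 0.5) and its log2 fold change, PyMT-N minus PyMT-M, on the y axis, in 3 panels by class of level in neutrophils kept alone. Of 6851 genes in the left panel 1219 were called higher and 902 lower, while in the right panel 523 and 370 of 1351 were and genes with no or almost no counts on one side have fitted fold changes of no fixed size.

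Interferon-stimulated genes were higher after PyMT-N co-culture almost throughout. Type I interferon binds the IFNAR receptor, activates a complex of STAT proteins with IRF9, and that complex binds the interferon-stimulated response element of antiviral genes. Of 50 tested interferon-stimulated genes, 44 were higher and 0 lower with PyMT-N, and the median log2 fold change was 1.31 against -0.02 over all tested genes. Among the 24 of at least 10 CPM alone, 23 were higher (20 with pan-leukocyte scaling), beside a background of 17.8%. Mx1, at 64.6, 41.6 and 36.4 normalised CPM with PyMT-N and 93.5, 65.5 and 80.4 with PyMT-M, differed by -0.76 ± 0.34 (SE) on the log2 scale and did not pass the test (edgeR adjusted p 0.0954). It passed as lower with library totals (0.029), pan-leukocyte scaling (0.015), no filter (0.0275), the compared groups alone (0.00704), limma-voom (0.0095) and without alone replicate 3 (0.00586). With library totals 42 of the 50 were higher and 2 lower, and with pan-leukocyte scaling 39 and 2.

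**Figure D2:**
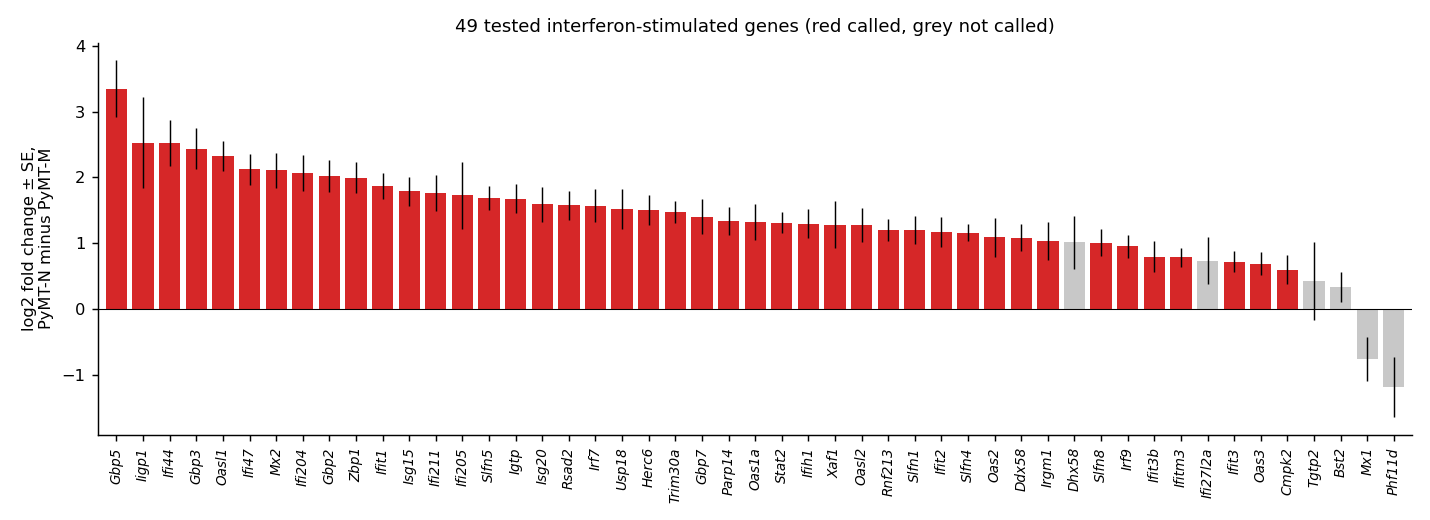
Bars give the log2 fold change, PyMT-N minus PyMT-M, of 49 of the 50 tested interferon-stimulated genes, with SE as error bars, red where the edgeR adjusted p was under 0.05 and grey where it was not. The 43 red bars all point upward, and Mx1 at -0.76 is one of the grey bars below 0.

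The promoters of the genes with the smallest p among those holding the core letters of the response element (GAAA, any 2 bases and GAAA again, on either strand) are shown because nearly all tested members of this group were called in 1 direction. Each is the 150 bases before the gene's start in RefSeq's GRCm38.p6 table, 5′ to 3′ on the gene's strand, with matches in capitals. The first base of the match nearest to the start lay 85 bases before it in Ifit1 (chr19:34640739-34640888, plus strand), 36 in Trim30a (chr7:104465194-104465343, minus), 59 in Gbp2 (chr3:142620513-142620662, plus) and 66 in Isg15 (chr4:156200819-156200968, minus), which holds 3 overlapping matches.
Ifit1: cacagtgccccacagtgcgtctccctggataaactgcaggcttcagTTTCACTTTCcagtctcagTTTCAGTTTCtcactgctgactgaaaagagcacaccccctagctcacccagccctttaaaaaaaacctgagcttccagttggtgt
Trim30a: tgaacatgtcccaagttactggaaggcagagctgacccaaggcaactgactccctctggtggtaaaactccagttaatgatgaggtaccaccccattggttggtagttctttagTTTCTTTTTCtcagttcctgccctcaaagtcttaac
Gbp2: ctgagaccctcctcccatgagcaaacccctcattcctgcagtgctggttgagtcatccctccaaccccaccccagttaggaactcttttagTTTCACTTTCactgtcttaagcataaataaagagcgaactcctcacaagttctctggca
Isg15: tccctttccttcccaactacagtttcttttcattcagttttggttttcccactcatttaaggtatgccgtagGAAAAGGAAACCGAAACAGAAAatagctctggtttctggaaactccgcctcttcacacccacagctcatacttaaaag
In the 250 bases before the start, 22 of 46 promoters of tested interferon-stimulated genes (47.8%) held the core, against 2.98% of all 32851 promoters in the table. The table held promoters for 39 of the 50 tested list members and 8976 of 12010 tested symbols. The core stood in 4.12% of promoters of genes of at least 10 CPM alone that were higher with PyMT-N, 2.42% of those lower and 2.23% of those not called. A match is a run of letters and no proof of binding.

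Rsad2, which encodes the antiviral enzyme viperin, lay at 5626, 5773 and 5105 normalised CPM with PyMT-N, at 1948, 1969 and 1626 with PyMT-M and at 34.3, 29.1 and 74.7 alone, a log2 fold change of 1.57 ± 0.21 between co-cultures (edgeR adjusted p 4.1e-05). Both co-cultures were far above the neutrophils kept alone, and the PyMT-N libraries were above all PyMT-M libraries. Slfn4, a myeloid Schlafen gene, reached 32900.1, 30613 and 26894 normalised CPM with PyMT-N against 13018, 13770.5 and 13704 with PyMT-M and 2417, 2005 and 2182 alone, 1.16 ± 0.13 on the log2 scale (edgeR adjusted p 4.97e-06). Ifit1, which binds foreign RNA, stood at 954, 742 and 716 with PyMT-N and 182, 247 and 229 with PyMT-M, 1.87 ± 0.20 (edgeR adjusted p 3.53e-06). The same order, without overlap, held for Oasl1 (log2 fold change 2.33), Gbp2 (2.03), Isg15 (1.79), Slfn5 (1.68) and Trim30a (1.47).

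Upstream of these genes, 8 of 13 tested ligands, receptors and sensors of at least 10 CPM alone were higher and 0 lower with PyMT-N, beside the 17.8% higher over the class. Irf1, an interferon-induced transcription factor, was at 264, 209 and 237 normalised CPM with PyMT-N and at 77.8, 92.6 and 75.9 with PyMT-M. Alone it lay at 79.8, 75.1 and 96.5, level with PyMT-M in trimmed-mean scaling. The log2 fold change between co-cultures was 1.52 ± 0.19 (edgeR adjusted p 1.46e-05). The feedback inhibitors of cytokine signalling Socs1 and Socs3 were higher with PyMT-N by 2.95 ± 0.36 and 2.51 ± 0.34 on the log2 scale (edgeR adjusted p 7.07e-06 and 4.95e-05). Socs1, unlike Socs3, was near absent alone. The interferon genes themselves were at or near 0. Ifnb1, the gene of interferon beta, had 5, 5 and 7 counts with PyMT-N, 0, 1 and 0 with PyMT-M and 0 in each alone library, too few to be tested. Ifna4, Ifng and Ifnl2 had 0 counts in all 9 libraries.

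NF-kB subunits, inhibitors and targets were on the same side. Of 26 tested members of at least 10 CPM alone, 21 were higher and 0 lower with PyMT-N, beside 17.8% and 13.2% over the class. Their median log2 fold change was 1.28, and with pan-leukocyte scaling 18 were higher and 0 lower. NF-kB is held in the cytoplasm by IkB proteins, and its own target genes include those inhibitors. Nfkbia, which encodes IkB alpha, was at 879, 781 and 838 normalised CPM with PyMT-N, 152, 258 and 122 with PyMT-M and 274, 247 and 444 alone, 2.23 ± 0.27 on the log2 scale (edgeR adjusted p 1.25e-05). In trimmed-mean scaling, its highest PyMT-M value lay within the range alone and the other 2 below it, and its PyMT-N values were above every other library. Tnfaip3, the deubiquitinase A20 that ends NF-kB signalling, and Ier3, an early response gene, were higher by 2.44 ± 0.22 and 2.63 ± 0.17 (edgeR adjusted p 6.81e-07 and 2.13e-08), and Ikbke, an IkB kinase that also acts on interferon factors, by 4.38 ± 0.39 (edgeR adjusted p 7.59e-07). Cd40, of 1 to 10 CPM alone, went the other way, at 1.15, 1.65 and 0.646 normalised CPM with PyMT-N and 22.8, 13.4 and 11.2 with PyMT-M, lower by 3.80 ± 0.55 on the log2 scale (edgeR adjusted p 6.06e-05).

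The promoter of Nfkbia holds 1 match to the NF-kB letters (GGGA, any 1 base and TTTCC, on either strand), 29 bases before the start (chr12:55492648-55492797, minus strand, GRCm38.p6), shown in capitals for the same 150-base window.
Nfkbia: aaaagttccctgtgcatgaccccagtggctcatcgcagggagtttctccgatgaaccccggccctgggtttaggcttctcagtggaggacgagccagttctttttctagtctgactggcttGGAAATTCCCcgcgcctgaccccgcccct
In the 250 bases before the start, such a match stood in only 2 of 29 promoters (6.9%) of tested genes of the NF-kB list. It stood in 0.426% of promoters of all tested genes and 0.356% of all promoters. Among genes of at least 10 CPM alone, the share was 0.899% for those higher with PyMT-N, 0.22% for those lower and 0.385% for those not called. The AP-1 letters TGANTCA stood in 6.59%, 4.19% and 3.79% of the same 3 groups, in 4.76% for all tested genes and in 6.75% of all promoters. The E-box CACGTG, which MYC and related factors bind, stood in 7.12%, 11.6% and 9.35%, in 8.42% for all tested genes and in 6.02% of all promoters.

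Immediate early genes that were called were nearly all higher with PyMT-N. Of 17 tested members of at least 10 CPM alone, 10 were higher and 1 was lower, beside 17.8% and 13.2% over the class. Of 7 tested at 1 to 10 CPM alone, 6 were higher and 0 lower, beside 14.6% and 15.6% over that class. Egr1, a transcription factor induced within minutes by growth factors, lay at 187, 253 and 161 normalised CPM with PyMT-N, 39.1, 32.3 and 29.8 with PyMT-M and 15.6, 25.4 and 18.9 alone, and its relative Egr3 was higher with PyMT-N too. Both phosphatases of MAP kinases named here moved apart: Dusp5 was higher by 3.18 ± 0.19 and Dusp2 lower by 1.95 ± 0.41 on the log2 scale (edgeR adjusted p 7.57e-09 and 0.00158).

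Receptors for microbial products were higher with PyMT-N as a list, 22 of 28 tested genes against 2 lower, with a median log2 fold change of 1.17. All were of at least 10 CPM alone, where 17.8% of genes were higher and 13.2% lower. With pan-leukocyte scaling 15 were higher and 2 lower. Cd14, the co-receptor that hands lipopolysaccharide to TLR4, was at 1554, 1262 and 1675 normalised CPM with PyMT-N, 63.6, 64.7 and 53.8 with PyMT-M and 58.8, 71.4 and 148 alone, a log2 fold change of 4.62 ± 0.28 (edgeR adjusted p 9.23e-09). In trimmed-mean scaling the PyMT-M libraries stayed in or just below the range alone, while the PyMT-N libraries were above all others. Tlr4 itself was at 296, 232 and 252 with PyMT-N and 52.5, 39.5 and 28.5 with PyMT-M, 2.69 ± 0.26 (edgeR adjusted p 1.43e-06), and Tlr2, a receptor for bacterial lipoproteins, was higher by 1.76 ± 0.20 (edgeR adjusted p 7.07e-06). The C-type lectin genes split: Clec4n, which encodes Dectin-2, and Clec5a were higher by 3.58 and 2.95, and Clec4a2, which encodes an inhibitory receptor, was lower by 1.54, at 122, 91.7 and 102 against 379.9, 274 and 259.5 normalised CPM.

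**Figure D3:**
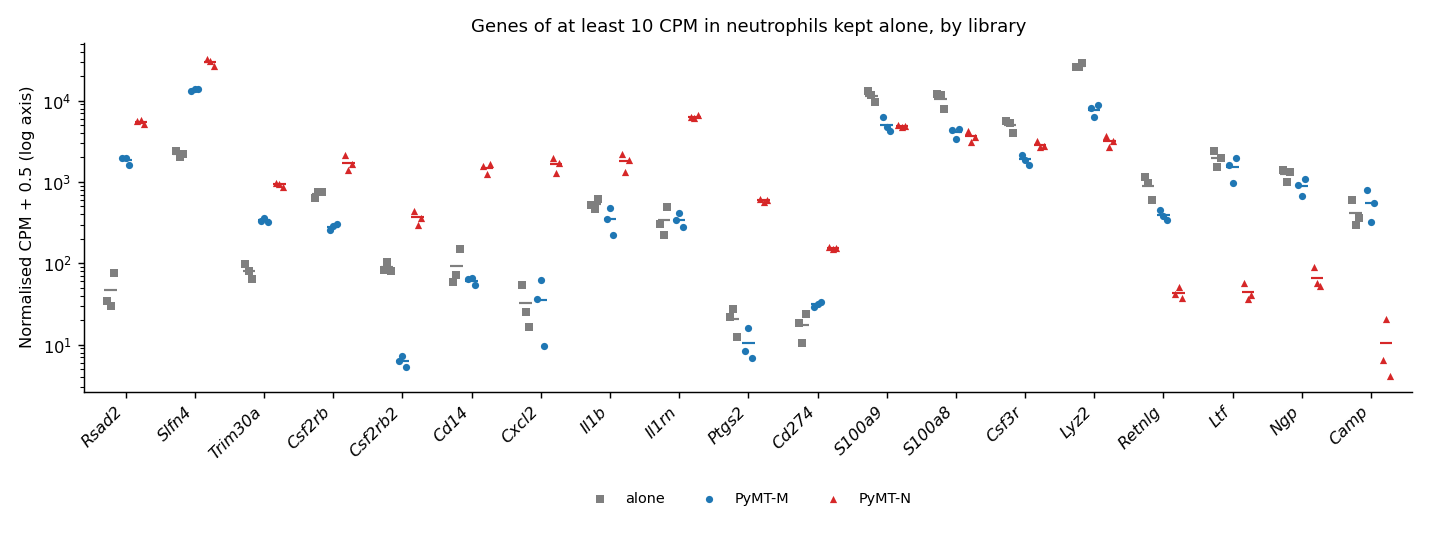
Normalised CPM + 0.5 on a log axis for 19 genes of at least 10 CPM in neutrophils kept alone, with each point a library, each short line the group mean, squares for alone, circles for PyMT-M and triangles for PyMT-N. The 3 PyMT-N points lie above all PyMT-M points from Rsad2 to Cd274 and for Csf3r, mix with them for S100a9 and S100a8, and lie below them for Lyz2, Retnlg, Ltf, Ngp and Camp.

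The IL-1 system had 8 members higher and 1 lower of 12 tested at 10 CPM or more alone, beside 17.8% and 13.2% over the class. Il1b, the gene of the pro-inflammatory cytokine IL-1 beta, lay at 2208, 1327 and 1880.2 normalised CPM with PyMT-N, 350.2, 473 and 219.6 with PyMT-M and 523, 464 and 621 alone, a log2 fold change of 2.37 ± 0.26 (edgeR adjusted p 4.54e-06). The receptor antagonist gene Il1rn, whose product blocks IL-1 signalling, stood at 6378, 6141 and 6609 with PyMT-N, 337, 421 and 277 with PyMT-M and 306, 221 and 486 alone, 4.21 ± 0.25 (edgeR adjusted p 1e-08). The decoy receptor gene Il1r2 was at 945, 640.5 and 694 against 75.2, 82.5 and 59.6, 3.38 ± 0.22 (edgeR adjusted p 2.07e-08). The cytokine, its antagonist and its decoy receptor were thus all higher with PyMT-N without overlap. Aim2, a DNA sensor of the inflammasome, was the lower member at -0.90 ± 0.29 (edgeR adjusted p 0.0249), with overlapping groups, and lost its call without any of PyMT-M replicates 1 and 2 or PyMT-N replicates 1 and 2 (adjusted p 0.0618 to 0.109).

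Chemokine genes differed by some of the widest margins. Cxcl2, whose product draws neutrophils through CXCR2, was at 1963, 1294 and 1716 normalised CPM with PyMT-N, 35.5, 61.5 and 9.05 with PyMT-M and 54.4, 24.7 and 15.8 alone, 5.51 ± 0.56 on the log2 scale (edgeR adjusted p 3.51e-05). Cxcl10, an interferon-induced ligand of CXCR3 that lay at 1 to 10 CPM alone, reached 948, 692 and 901 with PyMT-N against 52.9, 81.5 and 47.4, 3.80 ± 0.23 (edgeR adjusted p 6.64e-09). Ccl6, a CC chemokine of myeloid cells, stood at 2993, 3668 and 3297 against 93.5, 93.9 and 93.4, with 351, 336 and 482 alone. In trimmed-mean scaling its PyMT-M libraries were thus below and its PyMT-N libraries above those kept alone. Ccl3 and Ccl4 were higher with PyMT-N by 2.22 and 2.48. At 10 CPM or more alone, 3 of 4 tested genes of CXC chemokines and receptors were higher and 1 lower, and 4 of 7 of the CC kind were higher and 1 lower, beside 17.8% and 13.2% over the class. The monocyte attractants Ccl2 and Ccl7, near absent alone, were both lower: Ccl7 lay at 42.5, 35.5 and 28.4 with PyMT-N and 157, 96.4 and 132 with PyMT-M, and Ccl2 was lower by 0.94 ± 0.25, a call lost without PyMT-N replicate 2 or 3 (edgeR adjusted p 0.0513 and 0.0628). Of the receptors, Cxcr2 was higher by 0.60 ± 0.16 (edgeR adjusted p 0.00808; 0.0688 with library totals, 0.12 with pan-leukocyte scaling and 0.0505 without PyMT-N replicate 1). Cxcr4, which holds neutrophils in the marrow, was lower by 0.83 ± 0.29 (edgeR adjusted p 0.0384) with overlapping groups, and lost the call in 4 of the alternatives that leave out a co-culture library (adjusted p 0.0923 to 0.174) and with no filter (0.0512).

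Receptors for colony-stimulating factors and the genes of JAK-STAT5 feedback differed between the co-cultures. The beta chain shared by the GM-CSF, IL-3 and IL-5 receptors, Csf2rb, was at 2135, 1406 and 1642 normalised CPM with PyMT-N, 259.9, 284 and 301 with PyMT-M and 635, 763 and 759 alone, a log2 fold change of 2.62 ± 0.18 (edgeR adjusted p 3.15e-08). Its near-identical neighbour Csf2rb2, the IL-3-specific beta chain, lay at 439.7, 299 and 362, at 5.8, 6.68 and 4.79, and at 82.9, 102 and 80.7, 5.97 ± 0.26 (edgeR adjusted p 2.96e-10), and reads of the 2 copies may have been split by the counting. For both, in trimmed-mean scaling, all PyMT-M libraries were below and all PyMT-N libraries above those kept alone. Jak2, the kinase bound to that chain, was higher by 2.72 ± 0.34 and Il4ra by 2.85 ± 0.27 (edgeR adjusted p 2.76e-05 and 9.18e-07). Cish, a STAT5-induced inhibitor of 1 to 10 CPM alone, stood at 106, 112 and 125 normalised CPM with PyMT-N against 0.43, 2.1 and 2.93 with PyMT-M. Socs2, another STAT5 target, was near absent alone, and which cells held it was not tested. It had 557 counts with PyMT-N and 0 with PyMT-M, at least 215-fold higher when PyMT-M is set to 3 counts in all. The G-CSF receptor gene Csf3r differed less, at 3229, 2660.4 and 2768 against 2175, 1887 and 1620.3, 0.61 ± 0.16 (edgeR adjusted p 0.00874; 0.0719 with library totals and 0.101 with pan-leukocyte scaling). Stat5b was lower by 0.58 ± 0.18 (edgeR adjusted p 0.0237) and lost its call without any of 5 single co-culture libraries (adjusted p 0.0581 to 0.0802) and with no filter (0.0741). The list had 11 members higher and 1 lower of 16 tested at 10 CPM or more alone, beside 17.8% and 13.2% over the class. Csf2, the gene of GM-CSF, had 10, 26 and 44 counts with PyMT-N, 0, 2 and 0 with PyMT-M and 0 alone, and was not tested.

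Other cytokine genes of this class were few. Tnf was at 132, 109 and 118 normalised CPM with PyMT-N and 26.2, 33.2 and 18.1 with PyMT-M, 2.19 ± 0.25 on the log2 scale (edgeR adjusted p 8.44e-06), and Osm, the gene of oncostatin M, was higher by 2.06 ± 0.20 (edgeR adjusted p 1.26e-06). Tnfsf13b, which encodes the B cell survival factor BAFF, was lower, at 1.72, 3.86 and 0.215 against 17.2, 16.8 and 18.1. Vegfa, the angiogenic factor often ascribed to tumour neutrophils, lay at 91.3, 84.6 and 80.3 with PyMT-N, 57.6, 55.4 and 55.1 with PyMT-M and 51.2, 72.5 and 21.1 alone. Its groups did not overlap, but it missed the threshold at 0.61 ± 0.27 (edgeR adjusted p 0.1) and passed with the compared groups alone (0.00609), with limma-voom (0.0125) and without alone replicate 3 (0.00686).

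Of 21 tested genes of at least 10 CPM alone that are often named in tumour-associated neutrophils, 13 were higher and 3 lower with PyMT-N, beside 17.8% and 13.2% over the class. Cd274, which encodes the checkpoint ligand PD-L1, was at 157, 151 and 153 normalised CPM with PyMT-N, 28.8, 31.3 and 32.7 with PyMT-M and 17.8, 10.1 and 23.4 alone, 2.31 ± 0.23 on the log2 scale (edgeR adjusted p 1.45e-06). The 3 groups did not overlap. Of 8 tested checkpoint genes of at least 10 CPM alone, 6 were higher and 0 lower, among them Cd80 (2.76) and Cd47, the signal that restrains phagocytosis, at 1.52. Of 21 genes of MHC class I presentation, 10 were higher and 0 lower: H2-K1 lay at 1563, 1608 and 1348 against 476, 552 and 468, and Tapbp, the peptide-loading chaperone tapasin, was higher by 1.69. H2-Q4 was higher by 2.07, though class I genes are near-identical copies whose reads may be split.

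Survival genes were higher in 12 and lower in 2 of 21 tested cases of at least 10 CPM alone, beside 17.8% and 13.2% over the class. Bcl2l1, which encodes the anti-apoptotic BCL-XL, lay at 338, 308 and 297 normalised CPM with PyMT-N, 64.3, 71.2 and 71.9 with PyMT-M and 32.5, 20.9 and 18.1 alone, 2.19 ± 0.20 (edgeR adjusted p 5.84e-07). The death receptor gene Fas was higher as well, at 425, 331 and 438 against 79.1, 76.5 and 66.8, so that genes for and against survival were on the same side. Bcl2a1a and Bcl2a1b, copies of an NF-kB-induced survival gene that are near identical, were higher by 5.36 and 4.34, with 1.33 to 6.3 normalised CPM in the PyMT-M libraries. Bcl2a1a was near absent alone and Bcl2a1b at 1 to 10 CPM, so both lie outside the class counted above. Birc2 was lower by 1.15 ± 0.31 (edgeR adjusted p 0.00935), a call lost without PyMT-M replicate 3 or PyMT-N replicate 3 (0.0503 and 0.0531).

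Genes of the prostaglandin pathway included some of either direction. Ptgs2, which encodes COX-2, was at 624, 570.2 and 599 normalised CPM with PyMT-N, 7.95, 15.7 and 6.39 with PyMT-M and 21.4, 27.3 and 12.1 alone, a log2 fold change of 5.86 ± 0.30 (edgeR adjusted p 1.36e-09). Ptgs1, the COX-1 gene, was higher by 2.69 ± 0.25 (edgeR adjusted p 7.59e-07). Ptges, the inducible synthase that turns the COX product into prostaglandin E2, was lower, at 60.0, 69.1 and 55.1 against 157, 267 and 514, with 25.4, 20.5 and 23.4 alone, -2.35 ± 0.33 (edgeR adjusted p 6.82e-05). The COX genes and the synthase thus differed in opposite directions. Of 14 tested genes of the pathway in this class, 7 were higher and 2 lower, the latter near the 13.2% over the class.

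Adhesion and migration receptors of at least 10 CPM alone were higher in 14 and lower in 4 of 27 tested cases, and the lower share is near the 13.2% over the class. Cd44, a receptor for hyaluronan, was at 2498, 2539 and 2562 normalised CPM with PyMT-N, 599, 674 and 434 with PyMT-M and 1166, 963 and 981 alone, 2.15 ± 0.17 (edgeR adjusted p 1.66e-07). Itgam, the integrin subunit CD11b, lay at 164, 143 and 135 against 77, 63.9 and 80.4, with 296, 260.0 and 130.5 alone, 1.00 ± 0.25 (edgeR adjusted p 0.00572). Itga6, the laminin-binding subunit of epithelial and myeloid integrins, was higher with PyMT-N than with PyMT-M by 1.65 ± 0.31. It lay at 385, 489 and 379 normalised CPM with PyMT-N, 133.9, 144.7 and 121.1 with PyMT-M and 24.1, 51.2 and 5.28 alone. Among genes of the class with a mean log2 CPM of at least 4 and groups that did not overlap, a pair of matrix genes had the largest fold changes: Fn1, the fibronectin gene, lay at 789.8, 822 and 1042 with PyMT-N, 0.215, 2.1 and 1.33 with PyMT-M and 20.1, 4.48 and 75.4 alone, and Thbs1, the thrombospondin gene, at 1463, 1181 and 1446, at 14.2, 18.1 and 15.4, and at 49.0, 49.7 and 109. Epithelial and other tumour-type transcripts moved with these genes in the same libraries (2554 to 3602 against 140.4 to 209 CPM for the epithelial list without Lcn2), and their part was not tested.

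Genes of 2 glucose transporters differed in opposite directions. Slc2a1, the widely expressed transporter GLUT1, was at 338, 315 and 320.0 normalised CPM with PyMT-N, 58.7, 79.0 and 38.3 with PyMT-M and 38.3, 28.4 and 23.4 alone, 2.45 ± 0.24 (edgeR adjusted p 1.44e-06). Slc2a3, the high-affinity GLUT3 of leukocytes, lay at 138, 87.6 and 54.7, at 1016, 819 and 638, and at 1853, 1496 and 1421, -3.15 ± 0.28 (edgeR adjusted p 7.59e-07). For GLUT3 the order in trimmed-mean scaling was PyMT-N, PyMT-M, alone, with no overlap. Among 28 glycolysis and hypoxia genes of at least 10 CPM alone, 17 were higher and 1, Slc2a3, lower (12 and 1 with pan-leukocyte scaling). Pfkfb3, whose product drives glycolytic flux, was higher by 1.74. Of 25 sterol and fatty acid synthesis genes 12 were higher and 2 lower. Over the class of at least 10 CPM alone, 17.8% were higher and 13.2% lower. Lpl, lipoprotein lipase, went the other way, at 53.1, 30.9 and 17.9 with PyMT-N against 912, 566 and 763 with PyMT-M and 187, 327 and 261 alone, -4.48 ± 0.34 (edgeR adjusted p 1.75e-07). Fth1, the iron-storing ferritin heavy chain, was among the most abundant genes, at 13794, 8833 and 11598 against 4917, 4644 and 3407, 1.40 ± 0.20 (edgeR adjusted p 5.67e-05). Trpm2, an oxidant-gated calcium channel, was lower by 4.55 ± 0.23, at 10.9, 6.06 and 10.5 against 250.2, 191 and 212 and 752, 868 and 833 alone.

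Genes of neutrophil identity did not move as a block. S100a9 and S100a8, the calprotectin subunits that fill neutrophil cytosol, overlapped between co-cultures: S100a9 lay at 5064, 4788 and 4933 normalised CPM with PyMT-N and 6225, 4728 and 4186 with PyMT-M, -0.03 ± 0.16, and S100a8 at 4237, 3143 and 3585 and 4357, 3363 and 4494, -0.16 ± 0.18 (edgeR adjusted p 0.888 and 0.54). Of 27 identity genes tested, 15 were higher and 3 lower, beside 17.8% and 13.2% over the class, so the lower share is near that of the class. With either library totals or pan-leukocyte scaling 9 were higher and 5 lower. Those scalings gave 864 higher and 1436 lower, and 706 and 1183, of the 6851 genes of the class. Ly6g, the surface antigen by which mouse neutrophils are recognised, was at 45.1, 45.7 and 43.5 against 29.2, 23.5 and 25.6, 0.78 ± 0.26 (edgeR adjusted p 0.0283), and lost its call without any 1 of the 6 co-culture libraries (adjusted p 0.0515 to 0.109) and with 3 other scalings (0.0518 to 0.175). Mmp9, the gelatinase of tertiary granules, was higher by 1.57 ± 0.20 (edgeR adjusted p 1.64e-05). Retnlg, a resistin-like gene of blood and marrow neutrophils, was lower, at 41.9, 51.2 and 36.6 against 447, 385 and 342, with 1136, 979.6 and 595 alone, -3.18 ± 0.25 (edgeR adjusted p 1.18e-07).

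Several secondary granule genes, which are transcribed while neutrophils mature in the marrow, were far lower with PyMT-N. Ltf, the lactoferrin gene, was at 57.1, 36.1 and 40.2 normalised CPM with PyMT-N, 1625, 969.6 and 1946 with PyMT-M and 2382, 1536 and 1944 alone, -5.09 ± 0.29 on the log2 scale (edgeR adjusted p 6.17e-09). Camp, the cathelicidin gene, lay at 6.03, 20.4 and 3.66, at 795, 323 and 545, and at 599, 292 and 365, and Ngp, the neutrophilic granule protein, at 89.5, 56.5 and 52.7, at 906, 670.0 and 1074, and at 1408, 995 and 1323. For Ltf and Camp, in trimmed-mean scaling, the PyMT-M libraries overlapped those kept alone while the PyMT-N libraries were below both. The list as a whole was divided, with 9 of 22 tested genes lower and 7 higher (12 and 7 with pan-leukocyte scaling). Over the class, 13.2% were lower and 17.8% higher. Lyz2, lysozyme, was lower by 1.27 ± 0.15, while Lcn2 and Slpi were higher by 1.14 ± 0.22 and 2.06 ± 0.17. Of 10 tested genes on the list drawn up for primary granules, 3 were lower (Igfbp4, Serpinb1a and Fcnb), beside 13.2% over the class. The first of these, Igfbp4, had mean normalised CPM of 120 with PyMT-N, 392 with PyMT-M and 25.2 alone. Only Ctsc, which encodes the activator of granule proteases, was higher, by 3.11 ± 0.21. Mpo, the myeloperoxidase gene, had 0 counts with PyMT-N, 7 with PyMT-M and 317 alone, and did not pass the test between co-cultures (edgeR adjusted p 0.202; 0.0331 with DESeq2). Of 23 tested genes of the NADPH oxidase and oxidant handling, 11 were higher and 1 lower, beside 17.8% and 13.2% over the class. The lower one was the oxidase subunit gene Cybb, by 0.81 ± 0.20, while the subunit gene Ncf1 was higher by 1.30 ± 0.17 (edgeR adjusted p 0.00456 and 2.66e-05).

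Part of the ribosomal and proliferation genes were lower with PyMT-N and the rest were mostly not called. Of 75 tested cytosolic ribosomal protein genes of at least 10 CPM alone, 33 were lower and 0 higher, with a median log2 fold change of -0.52, beside a background of 13.2% lower. Rps3a1, a small-subunit protein gene, lay at 813, 1073 and 907 normalised CPM with PyMT-N, 2071, 1704 and 2472 with PyMT-M and 1159, 1206 and 1342 alone, -1.16 ± 0.17 (edgeR adjusted p 6.43e-05). In trimmed-mean scaling only its PyMT-M libraries stood above those kept alone. Among 18 MYC target and ribosome biogenesis genes, 8 were lower and 1, Mxd1, a MYC antagonist, was higher by 1.44 ± 0.17. Npm1 and Ncl, abundant nucleolar proteins, were lower by 1.16 ± 0.18 and 1.33 ± 0.21 (edgeR adjusted p 0.000145 and 0.000147). Of 23 cell cycle genes 10 were lower and 0 higher. Mcm3, a subunit of the replicative helicase, was at 63.4, 80.2 and 81.1 with PyMT-N, 223, 194 and 306 with PyMT-M and 28.1, 35.1 and 70.1 alone, and Top2a, which untangles replicated DNA, at 115, 108 and 87.6, at 222, 209.6 and 282, and at 39.2, 45.6 and 33.9. Mature neutrophils do not divide. The mesenchymal markers summed higher on the same side with Vim (4469 to 5513 CPM with PyMT-M against 2219 to 2601). Without Vim the sums overlapped, with Fn1, which was high with PyMT-N, still in them. The part of other cells was not tested. Respiratory chain genes had 5 of 38 and proteasome subunits 5 of 31 lower, near the background of 13.2%.

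**Figure D4:**
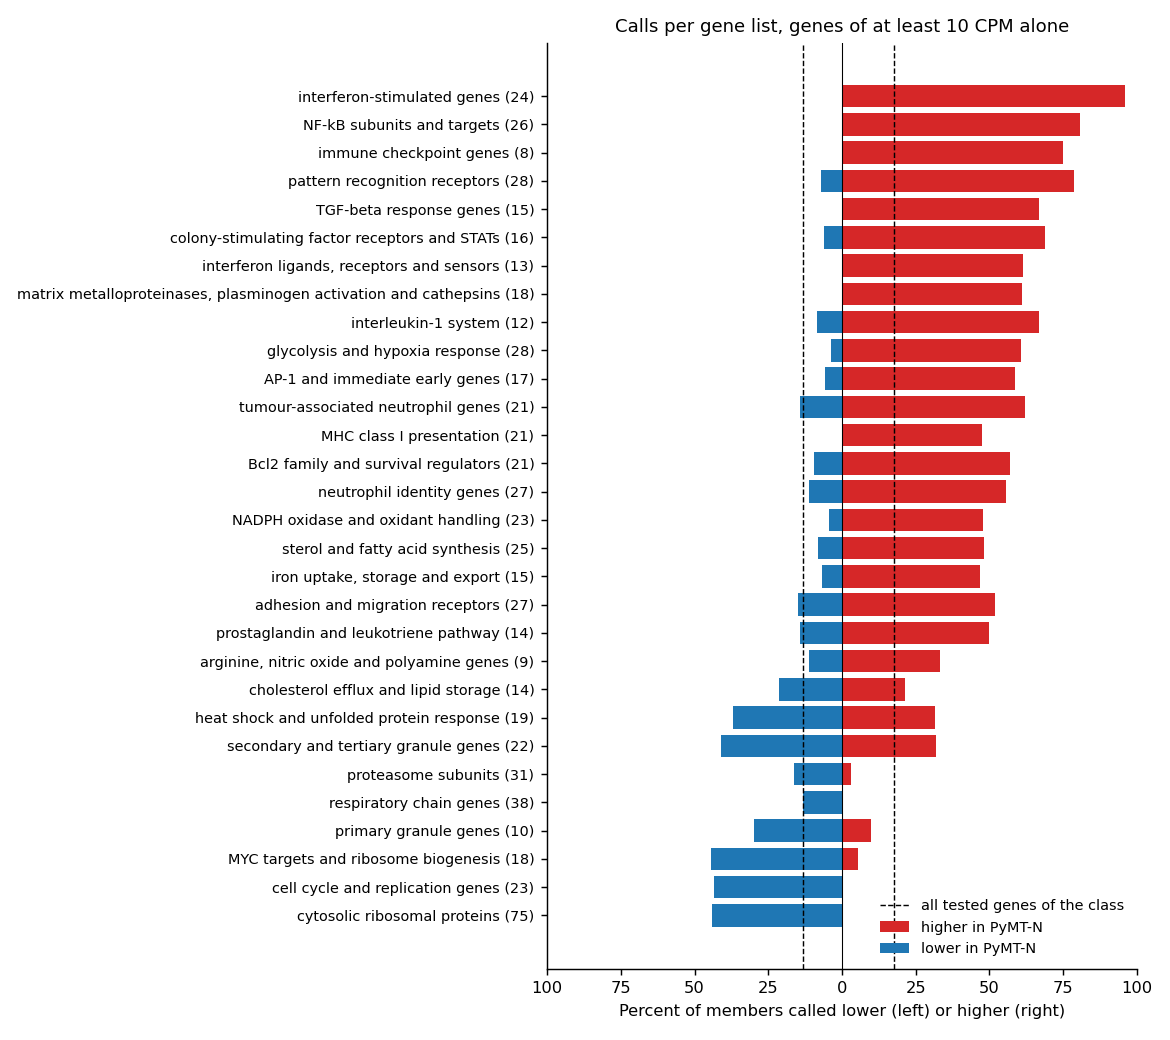
For each gene list, with its number of tested genes of at least 10 CPM alone in brackets, bars give the percentage of members called higher (right) or lower (left) with PyMT-N at an edgeR adjusted p under 0.05, for lists of 8 or more genes. Dashed lines mark the 17.8% higher and 13.2% lower over all 6851 genes of the class, past which interferon-stimulated genes reach farthest to the right and ribosomal, cell cycle and MYC target genes to the left.

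Near-absent genes formed the other side of the comparison. The deposited table held 42428 identifiers under 1 CPM alone, of which 1351 were tested. Of these, 523 (38.7%) were higher and 370 (27.4%) lower with PyMT-N. A gene of this class could pass the count filter only through a co-culture library, so these shares follow in part from the class. Keratin and junction genes of epithelia were on the PyMT-N side in 22 of 22 tested cases, 17 of them near absent alone. Krt8, a keratin of simple epithelia, lay at 359.9, 379 and 396 normalised CPM with PyMT-N, 37.4, 48.1 and 45 with PyMT-M and 0.446, 0 and 0 alone, 3.12 ± 0.20 (edgeR adjusted p 2.57e-08). Its partner Krt18 had 3902 counts with PyMT-N and 2 with PyMT-M, a ratio of 2260.0 after scaling with a counting interval (95%, exact) of 626 to 18700.0. Such intervals and the floors of 3 counts cover counting error only: amplified reads are not independent molecules, and replicate libraries differed by a chi-square of 6.9 to 14.7 per degree of freedom. Epcam, the epithelial adhesion molecule, was at 152, 228 and 191 against 1.72, 1.91 and 2.13 and 0 in every alone library. Esrp1, an epithelial splicing regulator, had 1707 counts with PyMT-N and 0 with PyMT-M or alone, at least 660.0-fold higher against 3 counts over the group. Krt8 was thus present on both sides at different levels, while Krt18 and Esrp1 were at or near 0 with PyMT-M.

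**Figure D5:**
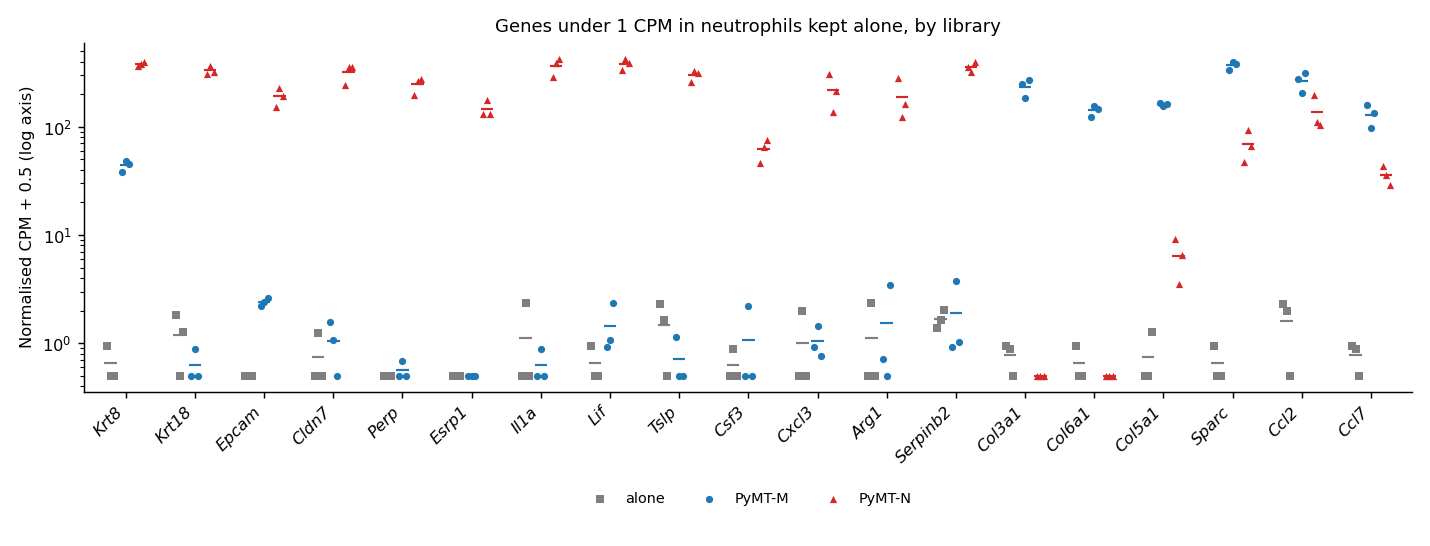
Normalised CPM + 0.5 on a log axis for 19 genes under 1 CPM in neutrophils kept alone, with each point a library and each short line a group mean, squares for alone, circles for PyMT-M and triangles for PyMT-N. From Krt8 to Serpinb2 the triangles stand above the circles, and from Col3a1 to Ccl7 below them, with Col3a1 and Col6a1 at 0 in all 3 PyMT-N libraries.

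Genes of secreted signals that were near absent alone were found with PyMT-N. Il1a, the gene of the alarmin IL-1 alpha, lay at 286, 386 and 426 normalised CPM with PyMT-N, 0, 0.382 and 0 with PyMT-M and 0, 1.87 and 0 alone, a ratio of 2540.0 with a counting interval of 703 to 21000.0. Lif, an IL-6 family cytokine, was at 333, 425 and 385 against 0.43, 0.573 and 1.86, Tslp, an epithelial cytokine, at 259, 324 and 313 against 0.645, 0 and 0, and Csf3, the gene of G-CSF, at 45.9, 64.5 and 74.9 against 0, 1.72 and 0. Cxcl3 stood at 308, 136 and 215 against 0.43, 0.954 and 0.266. EGF receptor ligands were on the same side: Hbegf lay at 177, 259 and 197 against 7.09, 6.68 and 5.59, Areg at 36.5, 52.1 and 54.0 against 1.72, 1.34 and 0.266, and Tgfa had 937 counts against 1. Arg1, the arginase that depletes arginine and is often named in suppressive myeloid cells, was at 280.1, 123 and 163 with PyMT-N against 0.215, 0 and 2.93, 7.67 ± 0.58 (edgeR adjusted p 1.07e-08), and Serpinb2, a plasminogen activator inhibitor, at 357, 318 and 398 against 0.43, 3.24 and 0.532. Epithelial markers other than Lcn2 summed to 2554 to 3602 CPM in the same 3 libraries, so whether neutrophils or attached cells held these transcripts cannot be told apart in bulk RNA. Of 8 tested near-absent genes of matrix degradation, 5 were higher and 2 lower, beside 38.7% and 27.4% over the class. Mmp3 lay at 239, 323 and 299.6 against 4.73, 1.15 and 5.06, and Mmp2 at 0.861, 0.275 and 6.24 against 22.6, 31.1 and 17. Of 6 tested near-absent TGF-beta-responsive genes, 4 were higher and 2 lower, so both lower shares are near that of the class. At 10 CPM or more alone, 11 of 18 genes of the matrix list were higher and 0 lower. The TGF-beta list had 10 of 15 higher and 0 lower there, beside 17.8% and 13.2% over that class. Pmepa1 had 1440 counts against 0. Tgfb3 was at -1.41 ± 0.47 on the log2 scale (edgeR adjusted p 0.0316). Its call was lost with DESeq2 (0.0608) and without PyMT-M replicate 2 or any 1 PyMT-N library (edgeR adjusted p 0.0623 to 0.179).

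Collagen genes marked the PyMT-M side. Of 15 tested genes of fibrillar collagens and their maturation, 11 were lower with PyMT-N and 2 higher, beside 15.5% and 19.1% over all tested genes. Those near absent alone numbered 11, of which 10 were lower and 1 higher, beside 27.4% and 38.7% over that class. Col3a1 had 0 counts in every PyMT-N library and 245, 182 and 272 normalised CPM with PyMT-M, at least 896-fold lower with PyMT-N against 3 counts over the group, and Col6a1 was at least 555-fold lower on the same terms. Col5a1 lay at 8.61, 3.03 and 6.03 against 166, 155 and 161, and Sparc, a collagen-binding matrix protein, at 46.8, 92.0 and 65.4 against 335, 397 and 377. The intermediate filament gene Vim, which neutrophils express too, was lower with PyMT-N, at 497, 515 and 467 against 2896, 2920.3 and 2303, with 1427, 1273 and 1475 alone, -2.46 ± 0.15 (edgeR adjusted p 1.08e-08). Yap1, the transcriptional co-activator of the Hippo pathway, was at 52.8, 85.9 and 79.4 with PyMT-N, 1019, 1278 and 1345 with PyMT-M and 2.23, 0 and 1.51 alone, whereas its textbook targets Ccn1, Ccn2 and Ankrd1 were higher with PyMT-N: Ankrd1 lay at 117, 154 and 161 against 0.86, 0.763 and 1.6. The co-activator and these targets were therefore on opposite sides. Bcat1, a branched-chain aminotransferase, was at 18.7, 24.5 and 14.4 against 383, 452 and 294, and at or near 0 in the neutrophils kept alone.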

How the data were processed

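Bulk RNA of sorted neutrophils was sequenced after amplification with a low-input kit, per the labels' protocols. The authors deposited 1 table of raw counts per gene for all 9 libraries, per the file headers and its whole-number values. Alignment used STAR, with the builds GRCm38 and mm10 named per the submitters' processing notes. No source used here names the counting tool, the annotation or whether strand was used, so overlapping or antisense genes and near-identical copies may share reads. Counting error alone allows up to 0.573 to 0.861 CPM for a gene with no count in a co-culture library.

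From these counts, genes were filtered with filterByExpr (minimum count 10, minimum total 15), scaled by TMM and tested with edgeR 4.0.16 (R 4.3.3) by the quasi-likelihood F test with robust moderation. All 9 libraries shared 1 model with a mean per group, and p-values were adjusted by Benjamini-Hochberg over 12012 genes. The SE of a fold change is its size over the root of F. The test was tried on simulated data with known changes. Alternatives used DESeq2 1.42.0, limma 3.58.1, other scalings, filters and thresholds, and left out each library in turn.

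The genes named were, per class and direction, the 8 with the largest fold change that did not overlap and had a mean log2 CPM of at least 4, the top members of each list, and a set of key genes. Another 29 genes were added after their values were seen. The members and lists were chosen with earlier results of these data known. The library names carry the same numbers in all 3 groups, and the labels do not say whether a number stands for an animal or batch. Deviations from the group means correlated at -0.0335 to 0.00418 between same-numbered co-culture libraries and at -0.0196 to 0.0327 between the others. With 3 libraries per group this cannot exclude pairing, and the main model did not use it. Promoters are RefSeq's (GRCm38.p6). Some genes are not reported here.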

Additional observations from a re-analysis of the deposited data

How the results depend on the processing

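The 190 named genes that were called had 3790 values under the alternatives. Of these, 3742 kept their direction and their side of the threshold, 48 lost the call and 0 changed sign. At least once, 11 of these genes lost a call. Many of them were named for large fold changes or small p, so these numbers do not describe all called genes. S100a9, which was not called, changed sign without PyMT-M replicate 1, with leave-one-out values from -0.16 to 0.14. Over all genes, DESeq2 shared 3734 of the 4162 calls (89.7%) in the same direction. Leaving out 1 co-culture library kept 74.2% to 80.0% of the 4162. Among genes of at least 10 CPM alone, the 1219 higher became 706 with pan-leukocyte scaling, 690 at a 2-fold minimum and 467 with a class boundary of 100 CPM. The 902 lower became 1436 with library totals, 1427 with limma-voom, 505 at an adjusted p under 0.01, 480 at a 2-fold minimum and 265 with the boundary at 100 CPM. Leaving out 1 library gave 588 to 1370 lower genes in this class. Over all genes it gave 1920 to 3009 higher and 1315 to 2621 lower, and an adjusted p under 0.01 left 1092 lower. Near-absent genes gave 238 higher and 154 lower with at least 50 counts in 3 libraries, and 906 and 569 with no filter. With the replicate number as a block, 2228 genes were higher and 1739 lower, with 1170 and 844 in the 10 CPM class and 518 and 354 near absent. Whether the numbers pair the libraries is not known. The causes of these changes were not tested.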
